A study of Mus musculus with 16 samples.

Results

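Broad H3K4me3 domains of early anagen hair follicle stem cells (EA-HFSCs) were examined. The domains were chosen by their width alone, as peaks of the EA-HFSC H3K4me3 list that spanned at least 5000 bp, and 1444 of the 21482 peaks in that list (6.72%) met this width. All 12 peak lists of the 3 marks together held 219698 peaks. The lists came from chromatin immunoprecipitation followed by sequencing (ChIP-seq) of mononucleosomes, prepared with micrococcal nuclease from sorted skin cells of wild-type mice with a mixed CD1 and FVB background, labelled as male, although the methods name both sexes for most work. The mark H3K4me3 was measured beside H3K27me3, H3K9me3 and an IgG control in 4 populations. HFSCs were sorted as CD34+/α6-integrin+ cells at postnatal day (PD) 22–25 in early anagen (EA) and at PD 38–44 in late catagen (LC). The CD34−/α6-integrin+ cells of the same ages, called non-EA-HFSCs (nEA) and non-LC-HFSCs (nLC), are mostly epidermal and lower outer root sheath cells and so are mixed populations. Cells of 15–20 mice were pooled for each population, and independent pools were merged before peaks were called, so that each population and mark had 1 list.

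With 1 list per population and mark, no difference between populations could be tested against a spread between replicates. Percentages are therefore given with 95% Wilson intervals, which cover counting error only. The depth behind each list is not known from the lists. The membership was set by EA-HFSC width, so a narrower peak in another population is partly built into the choice. Peak widths outside EA-HFSCs are therefore read among the other 3 populations, and the same width rule was also applied to each of them in turn. A width in another population is that of the widest peak overlapping the domain. Where 4 widths follow each other without names they are in the order EA, LC, nEA and nLC, and where 3 follow the EA-HFSC width they are in the order LC, nEA and nLC.

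H3K4me3 is deposited at the starts of transcribed genes and at unmethylated CpG-rich promoters, mainly by the SET1 and MLL methyltransferases. Most marked starts carry a narrow peak that ends shortly after the first nucleosomes of the gene. At a minority of genes the mark runs on for several kilobases into the transcribed region, and in many tissues such broad domains lie over regulators of cell identity. In the bulge, the niche of HFSCs, these regulators include Sox9, Tcf7l2, Nfatc1, Lhx2 and Tbx1.

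The sequences under the domains are shown first for promoters that stand for the classes compared in the results. Each is the 160 bp before the annotated start of a gene, for the 2 widest domains of a class that held exactly 1 protein-coding gene start. The window had to lie within the domain and overlap no annotated exon, and unnamed (Rik) genes were left out. Dlx2 also fits the class with an EA-HFSC H3K27me3 peak but was printed once, so the next widest domains were taken there. CG dinucleotides are in capitals, since unmethylated CG attracts the complexes that lay down H3K4me3. Positions are on NCBIM37 (mm9) and sequences run 5′ to 3′ on the strand of the gene.

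Domains at least 5000 bp wide in all 4 populations are represented by Bcl9l, a co-factor of β-catenin, at chr9:44307059-44307218 (+ strand), and Tcfap2a, which encodes the epidermal transcription factor AP-2α, at chr13:40829193-40829352 (− strand).
Bcl9l: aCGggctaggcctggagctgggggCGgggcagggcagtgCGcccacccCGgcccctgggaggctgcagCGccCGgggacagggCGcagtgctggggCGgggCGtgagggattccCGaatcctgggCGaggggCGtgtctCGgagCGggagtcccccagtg
Tcfap2a: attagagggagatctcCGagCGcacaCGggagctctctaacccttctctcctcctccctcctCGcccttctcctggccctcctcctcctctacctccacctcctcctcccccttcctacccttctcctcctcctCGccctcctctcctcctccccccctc

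Domains at least 5000 bp wide in both HFSC lists and in neither non-HFSC list are represented by Tcf7l2, a transcriptional effector of Wnt signalling, at chr19:55816140-55816299 (+ strand), and the zinc finger gene Casz1, at chr4:148178378-148178537 (+ strand).
Tcf7l2: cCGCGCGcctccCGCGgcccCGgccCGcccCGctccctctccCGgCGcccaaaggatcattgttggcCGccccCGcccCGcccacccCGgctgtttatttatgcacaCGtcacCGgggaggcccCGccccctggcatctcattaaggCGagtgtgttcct
Casz1: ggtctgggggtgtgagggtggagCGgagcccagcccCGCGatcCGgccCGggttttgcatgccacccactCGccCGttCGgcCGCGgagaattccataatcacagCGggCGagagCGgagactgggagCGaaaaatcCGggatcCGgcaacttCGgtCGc

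Domains at least 5000 bp wide in EA-HFSCs alone, with a narrower LC-HFSC peak, are represented by the retinoic acid receptor gene Rara, at chr11:98788972-98789131 (+ strand), and the homeobox gene Dlx2, at chr2:71384812-71384971 (− strand).
Rara: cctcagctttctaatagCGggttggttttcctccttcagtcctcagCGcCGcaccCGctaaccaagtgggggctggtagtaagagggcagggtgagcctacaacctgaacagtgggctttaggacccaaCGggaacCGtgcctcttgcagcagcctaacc
Dlx2: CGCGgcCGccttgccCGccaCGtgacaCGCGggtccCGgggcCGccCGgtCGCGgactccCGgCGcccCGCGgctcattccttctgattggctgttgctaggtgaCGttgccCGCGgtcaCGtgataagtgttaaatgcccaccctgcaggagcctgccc

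Domains with no LC-HFSC peak are represented by Rarg, another retinoic acid receptor gene, at chr15:102087949-102088108 (− strand), and Alad, an enzyme of haem synthesis, at chr4:62180953-62181112 (− strand).
Rarg: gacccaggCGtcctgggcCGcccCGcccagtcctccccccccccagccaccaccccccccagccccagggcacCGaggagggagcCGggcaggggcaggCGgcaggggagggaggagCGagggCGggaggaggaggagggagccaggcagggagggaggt
Alad: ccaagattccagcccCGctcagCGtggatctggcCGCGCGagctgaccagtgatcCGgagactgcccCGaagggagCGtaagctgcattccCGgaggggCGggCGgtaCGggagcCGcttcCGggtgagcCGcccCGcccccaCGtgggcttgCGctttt

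Domains that also held an EA-HFSC H3K27me3 peak are represented by Cbx8, a subunit of Polycomb repressive complex 1, at chr11:118902284-118902443 (− strand), and the growth factor gene Fgf9, at chr14:58689224-58689383 (+ strand).
Cbx8: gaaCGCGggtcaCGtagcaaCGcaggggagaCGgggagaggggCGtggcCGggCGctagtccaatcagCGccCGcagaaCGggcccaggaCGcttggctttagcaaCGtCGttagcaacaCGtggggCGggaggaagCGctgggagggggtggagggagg
Fgf9: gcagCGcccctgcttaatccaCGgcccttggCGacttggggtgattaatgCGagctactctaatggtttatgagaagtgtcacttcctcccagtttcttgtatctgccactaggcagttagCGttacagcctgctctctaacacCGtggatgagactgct

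The printed windows held between 5 CG (Tcfap2a) and 20 CG (Dlx2). Over all 22367 protein-coding genes, the same window held a median of 6 CG and 88.0% of windows held at least 1; the CG motif reads the same on both strands. The median was 13 CG (quartiles 8 and 19) for the 1500 genes with their start under a broad domain, 11 for the 11257 genes with their start under a narrower EA-HFSC peak and 1 for the 9610 genes under no EA-HFSC peak. By this count, promoters under broad domains stood close to those under other peaks and far from unmarked promoters.

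Over the whole length of the broad domains, CpG content was lower where they were wider. The ratio of observed to expected CpG had a median of 0.483 over 1443 domains on assembled chromosomes and 0.456 over 20012 peaks under 5000 bp, and median GC content was 52.5% and 50.2%. CpG-rich domains, with a ratio of at least 0.6 and at least 50% GC, were 248 of 1443, or 17.2% (15.3–19.2), and 14.7% of all EA-HFSC peaks were CpG-rich. Within the list, 21.8% of peaks of 4–5 kb were CpG-rich (20.0–23.8), whereas 19.7% of those of 5–7.5 kb (17.5–22.1), 8.29% of those of 7.5–10 kb (5.24–12.9) and 6.86% of those of 10 kb or more (3.36–13.5) were.

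The widths that chose the domains ran from 5000 to 58660 bp. The median was 5986 bp, the quartiles were 5410 and 7112 bp, and 307 domains reached 7500 bp, 102 reached 10000 bp and 8 reached 20000 bp. Together the domains covered 9.80 Mb, or 17.5% of the 56.1 Mb under EA-HFSC H3K4me3 peaks. Just inside the threshold lay domains of 5000 bp over the start of Rtn4r and over another transcript start of Mcc, and just outside it lay peaks of 4998 bp over Ubqln1 and Dip2b. The domains had a median peak score (−10 log10 of the MACS p) of 2433, with 468 at 3100 or more and 5 under 100, and narrower peaks had a median of 510. Many domains stood at exactly 3100 and the highest score was 3233, so scores in this range hardly rank them. In 20 cases neighbouring domains lay less than 1 kb apart, so that some long stretches of the mark were counted as several domains.

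Broad domains occurred on every autosome. Chromosome 11, which carries the type I keratin genes and the Hoxb genes, held 155 among 1673 peaks (9.26%, 7.97–10.7), and the lowest autosomal share was 5.27% (3.80–7.28) on chromosome 18. On the X chromosome 5 of 577 peaks were broad (0.867%, 0.371–2.01), with no overlap between its interval and that of any autosome.

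The 10 widest domains lay over Hox genes, over genes of the AP-2 and nuclear factor I families and over Bcl9l. The widest spanned Hoxb3 to Hoxb8 at chr11:96138661-96197320. It measured 58660 bp in EA-HFSCs, whereas the widest peak there was 4615 bp in LC-HFSCs, 15461 bp in non-EA-HFSCs and 6756 bp in non-LC-HFSCs. Its score, 85.1, was among the 5 under 100, and an H3K27me3 peak of 43809 bp overlapped it in EA-HFSCs. Peaks covered 18.8% of it in LC-HFSCs, 82.6% in non-EA-HFSCs and 61.1% in non-LC-HFSCs, so that LC-HFSCs stood apart from the other populations.

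Genes of the Hoxa cluster had a long peak in LC-HFSCs as well. The 27862-bp domain over Hoxa3, Hoxa5, Hoxa6 and Hoxa7 overlapped peaks of 25745 bp in LC-HFSCs, 17750 bp in non-EA-HFSCs and 7875 bp in non-LC-HFSCs. In all, 18 of 39 Hox genes had their start under a broad EA-HFSC domain, and these genes shared 8 domains.

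The remaining domains of this group also differed in how much remained elsewhere. At Nfix, a domain of 28239 bp over an internal transcript start was met by 3476 bp in LC-HFSCs, 8391 bp in non-EA-HFSCs and 6334 bp in non-LC-HFSCs. The 24883-bp domain over an internal start of Nfib was met by 15889, 9690 and 12218 bp. Bcl9l had 26110 bp in EA-HFSCs, 7771 bp in LC-HFSCs, 13194 bp in non-EA-HFSCs and 7629 bp in non-LC-HFSCs. At Tcfap2a the widths were 23337, 17479, 15616 and 16756 bp, and at Tcfap2b, another AP-2 gene, they were 20485, 12346, 13221 and 7377 bp. Every domain of this paragraph except that at Nfix had a peak of at least 5000 bp in LC-HFSCs.

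Most domains lay over gene starts. A protein-coding gene start was under 1222 of the 1444 domains (84.6%), compared with 52.8% of all EA-HFSC peaks. All EA-HFSC peaks had a median width of 2279 bp, and a longer interval is more likely to hold a start or meet another peak. The part of length in this share and in the overlap shares below was not tested. Exactly 1 start was under 971 domains, 2 starts were under 233 and 3 or more were under 18, and 218 domains held starts on both strands. Where a domain held several starts, its width cannot be assigned to 1 of the genes. Of the 222 domains without a gene start, 139 covered the start of another transcript of a gene, 32 of the rest were centred in a gene body and 51 were centred between genes. In total 1500 of 22367 protein-coding genes had their start under a broad domain, which is 6.71%, and 57.0% had it under an EA-HFSC peak of any width. The same rule gave 2.57% in LC-HFSCs, 3.05% in non-EA-HFSCs and 1.56% in non-LC-HFSCs, and these are the background shares for the gene lists that follow. They also count genes with no peak, which cannot be under a domain. Of the 12757 genes with their start under any EA-HFSC peak, 1500 were under a domain.

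Markers were checked against the label of the population. Bulge and follicle stem cell markers had 7 of 11 starts under a broad EA-HFSC domain, whereas none of 10 melanocyte, 12 dermal fibroblast, 14 leukocyte, 10 endothelial and 10 neuronal genes had one. At lists of this size a count of 0 has a Wilson upper limit of 21.5% to 27.8%, so it does not separate them from the 6.71% of all genes. The bulge and follicle stem cell markers had 6 in LC-HFSCs, 4 in non-EA-HFSCs and 2 in non-LC-HFSCs. EA-HFSC peaks of any width were over 3 melanocyte, 7 fibroblast, 1 leukocyte, 3 endothelial and 4 neuronal genes. The fibroblast count was 1 in LC-HFSCs, 2 in non-EA-HFSCs and 1 in non-LC-HFSCs, and the part of other cells in the domains was not tested.

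Genes that define the bulge were often under broad domains. Among 12 transcription factors of bulge stem cells, 8 had their start under a domain in EA-HFSCs, 6 in LC-HFSCs, 4 in non-EA-HFSCs and 3 in non-LC-HFSCs. At Sox9, which is needed to maintain the bulge, the widest peaks were 9290 bp in EA-HFSCs, 8369 bp in LC-HFSCs, 6551 bp in non-EA-HFSCs and 5203 bp in non-LC-HFSCs. At Tbx1, a T-box gene, they were 12377, 11939, 3668 and 2516 bp. The widest peaks of HFSCs and non-HFSCs were thus well separated at Tbx1 and formed a gradual series at Sox9. The non-HFSC mark at Tbx1 was listed in several peaks. Together these covered 73.4% of the domain in non-EA-HFSCs and 44.8% in non-LC-HFSCs, compared with 96.5% in LC-HFSCs.

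At other bulge factors the LC-HFSC peak was wider than any non-HFSC peak except at Barx2, where the non-EA-HFSC peak was wider. Smaller widths than in EA-HFSCs are partly built into the choice of domains. Tcf7l2 had 12652 bp in EA-HFSCs, whereas LC-HFSCs had 5164 bp, close to the 4826 bp of nEA and the 4759 bp of nLC. Lhx2, a LIM homeobox gene of the bulge, had 6162 bp in EA-HFSCs, 3429 bp in LC-HFSCs, 2351 bp in non-EA-HFSCs and no peak in non-LC-HFSCs. Nfatc1, a regulator of bulge quiescence, had 11278 bp in EA-HFSCs and a 9936-bp peak in LC-HFSCs, with 9690 bp in non-EA-HFSCs and 6417 bp in non-LC-HFSCs. Foxc1 had 13875, 9434, 8064 and 4646 bp, and Barx2 had 15050, 9344, 10159 and 8158 bp, in the order EA, LC, nEA and nLC.

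Among surface and secreted markers of the bulge and follicle, Cd34, Lgr5 and Dkk3 had wider peaks in both HFSC lists than in either non-HFSC list. Cd34, which encodes the antigen of the sort, had 6320 bp in early anagen HFSCs, 6192 bp in late catagen HFSCs and no peak in either non-HFSC list. Lgr5, an R-spondin receptor, had 5292 bp in EA-HFSCs, 6119 bp in LC-HFSCs, 3192 bp in non-EA-HFSCs and 2668 bp in non-LC-HFSCs. Dkk3, a secreted Dickkopf family protein, had 5515, 5309, 1906 and 1661 bp. In contrast, Krt15, a bulge keratin gene, had between 7827 and 8953 bp in all populations, and Lrig1, an inhibitor of EGF receptor signalling, had 14025 bp in EA-HFSCs, 7110 bp in LC-HFSCs, 13893 bp in non-EA-HFSCs and 10166 bp in non-LC-HFSCs.

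For a longer list of genes upregulated in the bulge, taken from the supplementary lists of the study, broad peaks became fewer in the order EA, LC, nEA and nLC. The study chose these genes by mRNA in bulge cells, so they are not independent evidence of bulge activity. Of its 217 matched genes, 61 (28.1%, 22.6–34.4) had their start under a broad EA-HFSC domain, 30 under a broad LC-HFSC peak, 11 in non-EA-HFSCs and 8 in non-LC-HFSCs. Over those 61 domains the median width was 6468 bp in EA-HFSCs, and the median of the widest peak was 4992 bp in LC-HFSCs, 3211 bp in non-EA-HFSCs and 2773 bp in non-LC-HFSCs. Over all 1444 domains these medians were 5986, 4610, 4528 and 3903 bp. Examples are Igfbp5, an insulin-like growth factor binding protein gene, with 6453 and 5849 bp in the HFSC lists and 2135 and 1551 bp in the non-HFSC lists, and Dlx3, with 9288 bp in EA-HFSCs, 4133 bp in LC-HFSCs, 3427 bp in non-EA-HFSCs and 2415 bp in non-LC-HFSCs. At Igfbp5 peaks together covered 71.0% of the domain in non-EA-HFSCs and 53.9% in non-LC-HFSCs, compared with 90.6% in LC-HFSCs.

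Genes downregulated in the bulge showed another order. Broad peaks lay over 8 of 99 in EA-HFSCs (8.08%, 4.15–15.1), 6 in LC-HFSCs (6.06%), 17 in non-EA-HFSCs (17.2%) and 12 in non-LC-HFSCs (12.1%). The EA-HFSC interval holds the 6.71% of all genes. The shares of all genes were 2.57% in LC-HFSCs, 3.05% in non-EA-HFSCs and 1.56% in non-LC-HFSCs. The constantly expressed genes of the study, 417 in number, had 62 starts under EA-HFSC domains (14.9%, 11.8–18.6), 19 in LC-HFSCs, 26 in non-EA-HFSCs and 14 in non-LC-HFSCs. Genes of other lineages had 8 of 222 (3.60%, 1.84–6.95), an interval that holds the 6.71% of all genes.

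Some keratinocyte genes were broad in every population and others were not. Of 21 basal keratin and adhesion genes, 14 had a broad EA-HFSC domain, 12 a broad LC-HFSC peak, 11 in non-EA-HFSCs and 8 in non-LC-HFSCs. Krt5, a basal keratin gene, had 12031 bp in EA-HFSCs, 7909 bp in LC-HFSCs, 8742 bp in non-EA-HFSCs and 7788 bp in non-LC-HFSCs. Krt14, its partner, had 8082, 7644, 9738 and 8915 bp, and Col17a1, which anchors basal cells to the basement membrane, had 10431, 8294, 8639 and 7605 bp. At Krt14 both non-HFSC lists were wider than both HFSC lists.

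Of 17 transcription factors of the epidermal lineage, 11 were under EA-HFSC domains, 8 in LC-HFSCs, 10 in non-EA-HFSCs and 8 in non-LC-HFSCs. Klf5, a Krüppel-like factor, had 5676 bp in EA-HFSCs, 6863 bp in LC-HFSCs, 10881 bp in non-EA-HFSCs and 9016 bp in non-LC-HFSCs. Klf4, another family member, had 9181, 7270, 8851 and 7291 bp. None of 20 terminal differentiation genes was under a broad EA-HFSC domain, although 8 of them had an EA-HFSC peak, and 2 had a broad peak in non-EA-HFSCs.

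Immediate early genes were broad in similar numbers in every population. Broad peaks lay over 15 of 24 in EA-HFSCs, 13 in LC-HFSCs, 14 in non-EA-HFSCs and 14 in non-LC-HFSCs. Myc had 7430, 6798, 6802 and 6076 bp, Jun had 6821, 6447, 5125 and 5263 bp, and the domain over Fosl2, which also holds the start of Gm10463, had 11893, 8429, 11753 and 8530 bp in the order EA, LC, nEA and nLC. Junb, another AP-1 subunit gene, was the widest of the list at 13049 bp in EA-HFSCs and had 7357, 7353 and 7429 bp in the others.

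**Figure D1:**
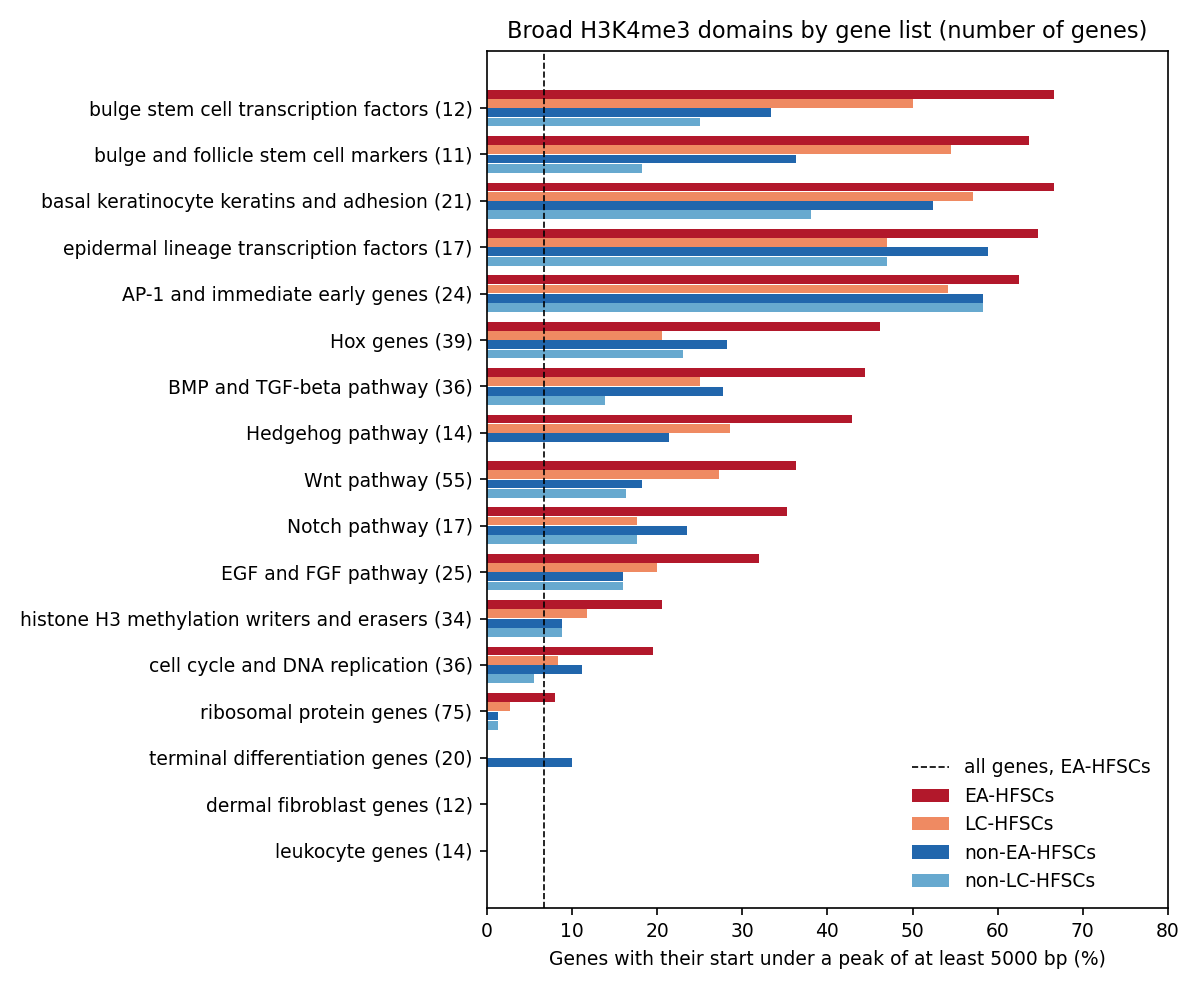
Percentage of the genes of 17 lists (y axis, number of genes in parentheses) with their start under an H3K4me3 peak of at least 5000 bp in each of the 4 populations (x axis), with the 6.71% of all protein-coding genes in EA-HFSCs as a dashed line. Bulge, keratinocyte and immediate early gene lists exceed 60% in EA-HFSCs, and the terminal differentiation, fibroblast and leukocyte lists are at 0 there. In lists of that size a count of 0 does not separate them from the 6.71%.

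Signalling genes under broad domains included receptors, secreted antagonists and target genes. Of 55 Wnt pathway genes, 20 had a broad EA-HFSC domain (36.4%, 24.9–49.6), 15 a broad LC-HFSC peak, 10 in non-EA-HFSCs and 9 in non-LC-HFSCs. After Tcf7l2, the Wnt receptor genes Fzd7 and Fzd2 were the widest, with 12316 bp at Fzd7 and 10363 bp at Fzd2 in EA-HFSCs and 9705 and 7111 bp in LC-HFSCs. Sfrp1, a secreted inhibitor of Wnt ligands, had 8113, 5909, 4430 and 2819 bp. The target genes Axin2 and Lef1 were wider in LC-HFSCs, with 6151 and 7592 bp at Axin2 and 5196 and 7579 bp at Lef1 in the 2 HFSC lists. The non-HFSC lists had 7194 and 7670 bp at Axin2 but 2919 and 2704 bp at Lef1.

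Of 36 BMP and TGF-β pathway genes, 16 were under EA-HFSC domains, 9 in LC-HFSCs, 10 in non-EA-HFSCs and 5 in non-LC-HFSCs. The BMP target Id2 had 9608, 9487, 9181 and 9569 bp, all between 9181 and 9608 bp. Among antagonists, Grem1 had 6702 bp in EA-HFSCs, 4031 bp in LC-HFSCs, 2261 bp in non-EA-HFSCs and 2526 bp in non-LC-HFSCs. Nog, which encodes Noggin, had 6577 bp in EA-HFSCs, 6233 bp in LC-HFSCs and 3179 and 3193 bp in the non-HFSC lists. Peaks at Nog together covered 82.2% of the domain in non-EA-HFSCs and 72.7% in non-LC-HFSCs, compared with 94.8% in LC-HFSCs. Smad7, an inhibitor of receptor signalling, had 10564 bp in EA-HFSCs and 8721, 8653 and 6628 bp in the others.

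In the Hedgehog pathway 6 of 14 genes were under EA-HFSC domains, 4 in LC-HFSCs, 3 in non-EA-HFSCs and 0 in non-LC-HFSCs. Gli2, a transcriptional effector, had 7716 and 7448 bp in the HFSC lists and 3669 and 3514 bp in the non-HFSC lists. The Notch list had 6 of 17 in EA-HFSCs and 3, 4 and 3 in the others, and its widest domain was at the ligand gene Jag1, with 10790, 9082, 11081 and 7156 bp. The EGF and FGF list had 8 of 25 in EA-HFSCs and 5, 4 and 4 in the others, led by the feedback inhibitor Spry2 with 9400, 6950, 8244 and 7284 bp.

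Broad domains also lay over genes of the cell cycle and of histone methylation. Of 36 cell cycle and replication genes, 7 were under EA-HFSC domains (19.4%, 9.75–35.0, beside 6.71% of all genes), 3 in LC-HFSCs, 4 in non-EA-HFSCs and 2 in non-LC-HFSCs. All 36 had an EA-HFSC peak, whereas the 6.71% also counts genes without one. Among all genes with an EA-HFSC peak, 1500 of 12757 were under a domain. The D-type cyclin gene Ccnd2 had 8456, 8482, 8553 and 8547 bp. The domain over the starts of Cdk4, its kinase partner, and of March9 had 8999 bp in EA-HFSCs, and the widest peaks there had 2614, 2529 and 2459 bp elsewhere. Cdkn1b, which encodes the inhibitor p27, was the only broad gene among 7 CDK inhibitors in EA-HFSCs, at 11498 bp, with 5767 bp in LC-HFSCs and 8593 bp in non-EA-HFSCs.

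Among 34 matched genes of H3 methylation enzymes, 7 were under EA-HFSC domains (20.6%, 10.3–36.8), 4 in LC-HFSCs, 3 in non-EA-HFSCs and 3 in non-LC-HFSCs. An EA-HFSC peak of any width lay over 31 of the 34 starts. The domain over the H3K4 methyltransferase gene Setd1b, which also holds the start of Rhof, had 14349, 11082, 11147 and 10975 bp, and Kdm6b, an H3K27 demethylase gene, had 14148, 7594, 6954 and 4753 bp. Ribosomal protein genes, which are highly transcribed, were near the share of all genes, with 6 of 75 (8.00%, 3.72–16.4), although 74 of the 75 had an EA-HFSC peak. Of 67 replication-dependent histone genes, 9 were under 3 EA-HFSC domains, and they share clusters in which neighbouring genes fall under the same peak. T-box and Pitx genes had 2 of 20, Tbx1 and Tbx3.

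**Figure D2:**
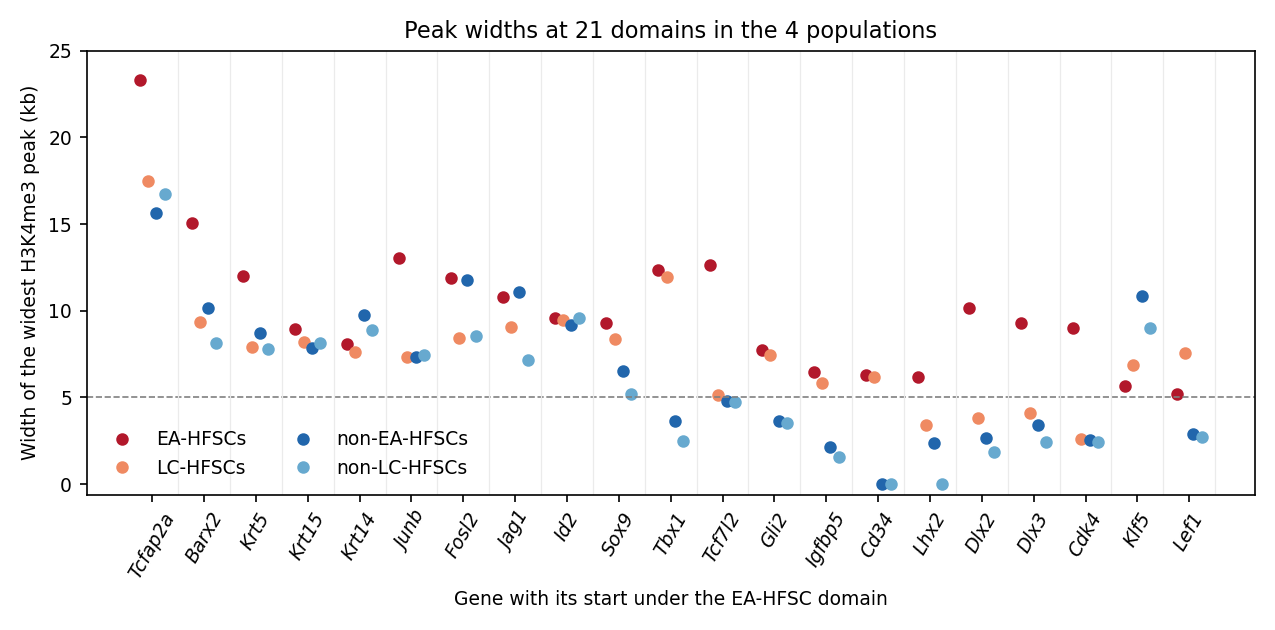
Width of the widest H3K4me3 peak (y axis, kb) over 21 EA-HFSC domains named by the gene whose start lies under them (x axis), with 1 point per population and 0 for no peak; the dashed line is 5 kb. Id2 has nearly equal widths in the 4 populations, and at Tbx1 and Gli2 the widest peak is wider in HFSCs than in non-HFSCs. The domain at Cdk4, which also holds the start of March9, is over 5 kb in EA-HFSCs alone.

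Nearly every domain had some H3K4me3 in each other population. An LC-HFSC peak overlapped 1421 domains (98.4%, 97.6–98.9), a non-EA-HFSC peak 1436 (99.4%, 98.9–99.7) and a non-LC-HFSC peak 1428 (98.9%, 98.2–99.3). Over all EA-HFSC peaks these shares were 66.4%, 83.6% and 75.0%. Narrow peaks were less often present elsewhere, and EA-HFSC peaks of 4–5 kb already had an LC-HFSC peak in 97.9% of cases (97.1–98.5). Peaks in all 4 populations were found at 1405 domains (97.3%).

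Peaks of at least 5000 bp were present at fewer domains. They overlapped 556 domains in LC-HFSCs (38.5%, 36.0–41.0), 564 in non-EA-HFSCs (39.1%, 36.6–41.6) and 323 in non-LC-HFSCs (22.4%, 20.3–24.6). The shares over all EA-HFSC peaks were 2.78%, 3.34% and 1.70%, and they contain the width rule. Domains of 10 kb or more were met by such a peak in 89.2% of cases in LC-HFSCs (81.7–93.9), 83.3% in non-EA-HFSCs (74.9–89.3) and 69.6% in non-LC-HFSCs (60.1–77.7). For domains of 5–7.5 kb the shares were 27.9% (25.4–30.6), 31.2% (28.6–34.0) and 14.3% (12.4–16.5). The share was thus higher for wider domains in all 3 populations.

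**Figure D3:**
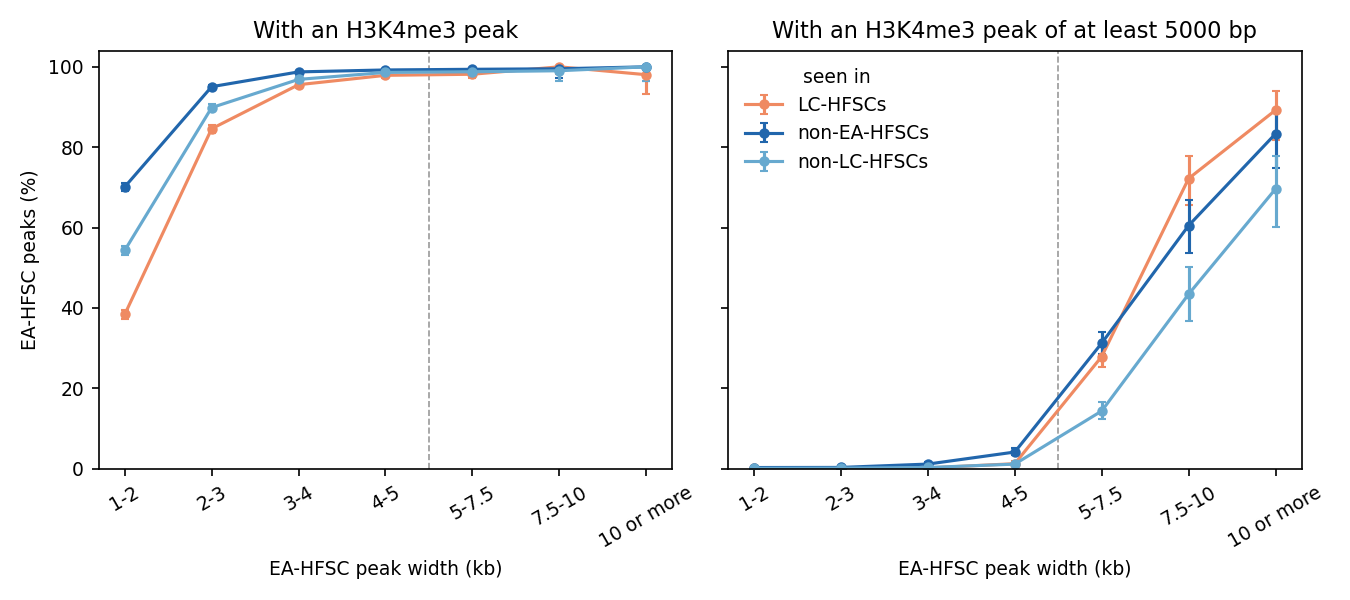
Percentage of EA-HFSC H3K4me3 peaks (y axis) with any overlapping H3K4me3 peak (left) or with one of at least 5000 bp (right) in the other 3 populations, by EA-HFSC peak width (x axis, kb); bars are 95% Wilson intervals and the dashed line is the 5-kb threshold. Presence is nearly complete from 3–4 kb upwards, whereas the share with a broad LC-HFSC peak is 27.9% at 5–7.5 kb and 89.2% at 10 kb or more.

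Among the other populations, non-LC-HFSCs had the narrowest peaks. The median of the widest overlapping peak was 4610 bp in LC-HFSCs, 4528 bp in non-EA-HFSCs and 3903 bp in non-LC-HFSCs. Where both had a peak, LC-HFSCs and non-EA-HFSCs were wider about equally often, at 701 and 713 domains. LC-HFSCs were wider than non-LC-HFSCs at 1077 domains and narrower at 328, and non-EA-HFSCs were wider than non-LC-HFSCs at 1150 and narrower at 276. A peak wider than that of EA-HFSCs was found at 57 domains in LC-HFSCs, 137 in non-EA-HFSCs and 37 in non-LC-HFSCs.

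Domains were also split into several peaks. More than 1 peak lay under 161 domains in LC-HFSCs (11.1%, 9.63–12.9), 402 in non-EA-HFSCs (27.8%, 25.6–30.2) and 398 in non-LC-HFSCs (27.6%, 25.3–29.9). In LC-HFSCs 1260 domains met exactly 1 peak, compared with 1034 and 1030 in the non-HFSC lists. The median share of a domain's length under peaks was 76.9% in LC-HFSCs, 80.6% in non-EA-HFSCs and 70.1% in non-LC-HFSCs. When peaks less than 1 kb apart were merged in every list, 37.9% of domains were met by a broad peak in LC-HFSCs, 48.3% in non-EA-HFSCs and 28.7% in non-LC-HFSCs.

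The same width rule applied to the other lists gave 589 domains among 14718 peaks in LC-HFSCs (4.00%), 689 among 24498 in non-EA-HFSCs (2.81%) and 357 among 18996 in non-LC-HFSCs (1.88%). Of the LC-HFSC domains, 564 (95.8%, 93.8–97.1) were met by a broad EA-HFSC peak, as were 571 of the non-EA-HFSC domains (82.9%, 79.9–85.5) and 326 of the non-LC-HFSC domains (91.3%, 87.9–93.8). In the reverse direction 38.5% of EA-HFSC domains were broad in LC-HFSCs. Broad LC-HFSC domains therefore lay almost entirely where EA-HFSCs had one too.

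By combination, 716 domains (49.6%, 47.0–52.2) were broad in EA-HFSCs alone and 273 (18.9%, 17.0–21.0) in all 4 populations. The former had a median EA-HFSC width of 5558 bp and the latter of 7691 bp. A further 141 were broad in both HFSC lists only, 135 in both early anagen lists only, and 129 in all but non-LC-HFSCs. The combinations of EA-HFSCs with non-LC-HFSCs but without LC-HFSCs were rare, with 10 domains lacking and 27 having a broad non-EA-HFSC peak.

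The 141 domains broad in HFSCs only included, after Tcf7l2, 2 at Casz1. The domain over its gene start had 12563 bp in EA-HFSCs, 5111 bp in LC-HFSCs, 4605 bp in non-EA-HFSCs and 4567 bp in non-LC-HFSCs. The other, over an internal transcript start, had 11315, 6232, 3852 and 4725 bp. Its 3 non-EA-HFSC peaks together covered 73.0% of it, compared with 70.7% in LC-HFSCs and 47.8% in non-LC-HFSCs. The class was thus set by the widest peak and not by the share covered. Bnc2, a basonuclin zinc finger gene, had 11155 bp over an internal start, with 6484, 3178 and 2518 bp elsewhere, so that non-HFSC peaks covered 28.5% of it in early anagen and 22.6% in late catagen.

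Among domains whose LC-HFSC peaks were all under 5000 bp, the widest after Hoxb3 to Hoxb8 and Nfix lay over Gyltl1b, a glycosyltransferase gene, and Pex16, a peroxisome biogenesis gene. It measured 17223 bp in EA-HFSCs, 4972 bp in LC-HFSCs, 8344 bp in non-EA-HFSCs and 3579 bp in non-LC-HFSCs. At the Rara start the domain had 10495 bp, with peaks of 2701, 3707 and 1714 bp.

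No LC-HFSC peak was listed at 23 domains. All but 1 of them had a peak in non-EA-HFSCs, and 21 had peaks in both non-HFSC lists. The widest, 11743 bp with a score of 85.5, lay within Casz1 next to the domain at its start. Rarg had 10963 bp in EA-HFSCs, 8339 bp in non-EA-HFSCs and 8164 bp in non-LC-HFSCs, and non-HFSC peaks covered 93.5% and 87.8% of it. Alad had 7347, 7558 and 6505 bp, and Prrc2b had 7002, 4305 and 3519 bp, in the same order. A domain of 6636 bp within Ptk7 was met by 3819 bp in non-EA-HFSCs and 2603 bp in non-LC-HFSCs. The median score of all H3K4me3 peaks was 226 in LC-HFSCs, 612 in EA-HFSCs, 462 in non-EA-HFSCs and 713 in non-LC-HFSCs. The part of these lower LC-HFSC scores in the absences was not tested.

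Of 971 domains with a single gene start, 875 (90.1%, 88.1–91.8) extended further downstream than upstream of it. In the 904 whose start was under a peak in all 4 populations, the median extent upstream was 1824 bp in EA-HFSCs, 1318 bp in LC-HFSCs, 1284 bp in non-EA-HFSCs and 1113 bp in non-LC-HFSCs. The median extent downstream was 4251, 3235, 3185 and 2753 bp. At 5 kb into the gene, a peak was present at 34.2% of all 971 domains in EA-HFSCs, 18.0% in LC-HFSCs, 23.5% in non-EA-HFSCs and 15.0% in non-LC-HFSCs. At the start itself the shares of the 971 outside EA-HFSCs were 96.9%, 96.5% and 95.7%, so that the populations differed on the flanks.

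**Figure D4:**
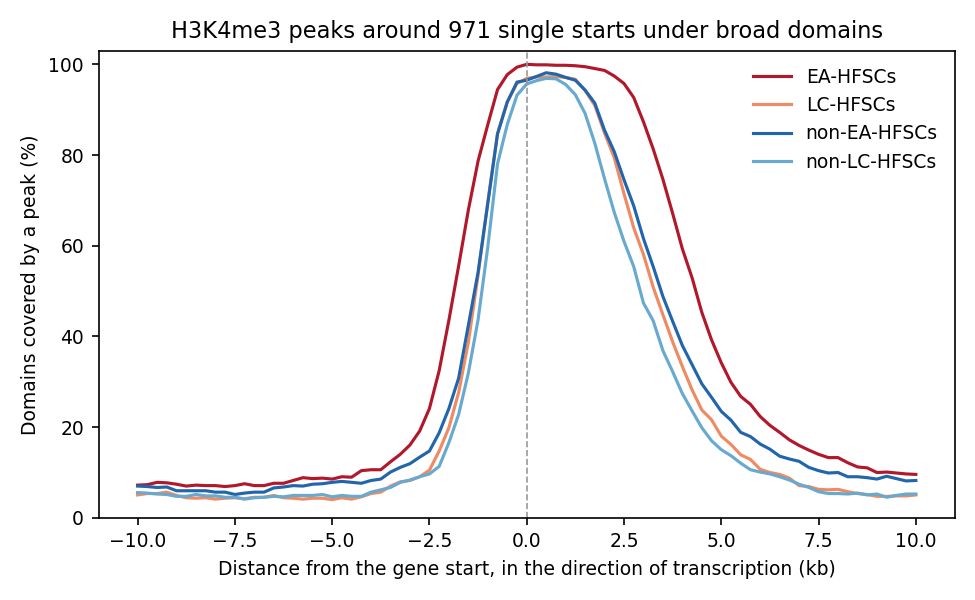
Percentage of 971 domains covered by an H3K4me3 peak (y axis) by distance from their single gene start in the direction of transcription (x axis, kb), with 1 line for each population. All populations reach at least 95.7% at the start, and the EA-HFSC line lies above the others on both flanks of it, as the choice of domains by EA-HFSC width implies.

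H3K27me3, the mark of Polycomb repressive complex 2, was less common on broad domains than on EA-HFSC H3K4me3 peaks as a whole. An EA-HFSC H3K27me3 peak overlapped 64 domains (4.43%, 3.49–5.62), compared with 10.2% of all peaks. In LC-HFSCs the numbers were 17 domains (1.18%, 0.736–1.88) and 3.00% of peaks. In non-EA-HFSCs they were 152 (10.5%, 9.05–12.2) and 15.1%, and in non-LC-HFSCs 120 (8.31%, 6.99–9.85) and 11.3%. H3K4me3 peaks of 4–5 kb had the mark in 5.35% of cases in EA-HFSCs (4.40–6.49) and 1.73% in LC-HFSCs (1.22–2.44). In non-EA-HFSCs the share was 9.31% (8.05–10.7) and in non-LC-HFSCs 7.13% (6.03–8.42). In each population the interval for these peaks just under the threshold overlapped that of the domains. The EA-HFSC list of the mark held 25534 peaks and the LC-HFSC list 1909, so the LC-HFSC counts rest on a much shorter list. Of the 64 domains, 59 also had H3K27me3 in non-EA-HFSCs and 55 in non-LC-HFSCs. The EA-HFSC mark covered at least 50% of the length of 2.42% of the domains.

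The widest domains with H3K27me3 in EA-HFSCs were the Hoxb3 to Hoxb8 and Hoxa3 to Hoxa7 domains, followed by Dlx2, Cbx8 and Fgf9. Dlx2 had H3K4me3 widths of 10165 bp in EA-HFSCs, 3824 bp in LC-HFSCs, 2653 bp in non-EA-HFSCs and 1861 bp in non-LC-HFSCs. Its widest H3K27me3 peaks were 15931 bp in EA-HFSCs, 19740 bp in non-EA-HFSCs and 18602 bp in non-LC-HFSCs, and none was listed in LC-HFSCs. Cbx8 had 9233 bp of H3K4me3 and a 5563-bp H3K27me3 peak in EA-HFSCs, and a 25930-bp H3K27me3 peak in non-EA-HFSCs. Fgf9 had 8951, 7529, 4026 and 3456 bp of H3K4me3. Domains with and without EA-HFSC H3K27me3 were broad in LC-HFSCs in 37.5% and 38.6% of cases, and in non-EA-HFSCs in 28.1% and 39.6%.

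At Tbx1 H3K27me3 was listed only in the non-HFSC lists, with widest peaks of 7938 bp in early anagen and 5270 bp in late catagen. These were the populations in which its widest H3K4me3 peak was under 5000 bp.

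H3K9me3, a mark of heterochromatin that is usually depleted at active starts, was listed at most broad domains in EA-HFSCs. It overlapped 1094 of them (75.8%, 73.5–77.9), compared with 42.7% of all EA-HFSC H3K4me3 peaks. It overlapped 264 domains in non-LC-HFSCs (18.3%, 16.4–20.4; 8.77% of peaks), 8 in non-EA-HFSCs (0.554%, 0.281–1.09; 0.735% of peaks) and 0 in LC-HFSCs, which allows a share of up to 0.208% if 3 counts are taken as the limit of a count of 0 (0.0605% of peaks). The H3K9me3 lists differed in length, from 42277 peaks in EA-HFSCs down to 1414 in LC-HFSCs, and the part of this in the shares was not tested. The EA-HFSC share was 16.2% (15.4–17.1) for H3K4me3 peaks of 1–2 kb, 72.9% (70.7–74.9) at 4–5 kb and 78.4% (69.5–85.3) at 10 kb or more. Peaks just under the threshold therefore had a high share too.

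These H3K9me3 peaks were shorter than the domains in general. The median of the widest was 1735 bp, compared with 649 bp for all peaks of that list, and covered a median of 31.4% of the domain. Of 751 domains with a single gene start and an H3K9me3 peak, the middle of the nearest peak was a median of 541 bp downstream of the start, and the peak covered the start in 492 (65.5%). When only peaks scoring 100 or more were used, 31.5% of domains had an EA-HFSC H3K9me3 peak, and peaks of any score covered at least 50% of the length in 9.49%.

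H3K9me3 was listed at 55 of 61 domains over constantly expressed genes, at 13 of 15 over immediate early genes and at 27 of 61 over genes upregulated in the bulge. It was listed at 2 of 8 domains over bulge transcription factors, Barx2 and Tcf7l2, and at 5 of 7 over bulge and follicle stem cell markers. It was listed at 15 of 20 domains over Wnt pathway genes and at 11 of 14 over keratinocyte genes, beside 75.8% of all domains, and the differences between lists were not tested. Domains broad in LC-HFSCs had it in 79.9% of cases (444 of 556) and those not broad there in 73.2% (650 of 888).

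**Figure D5:**
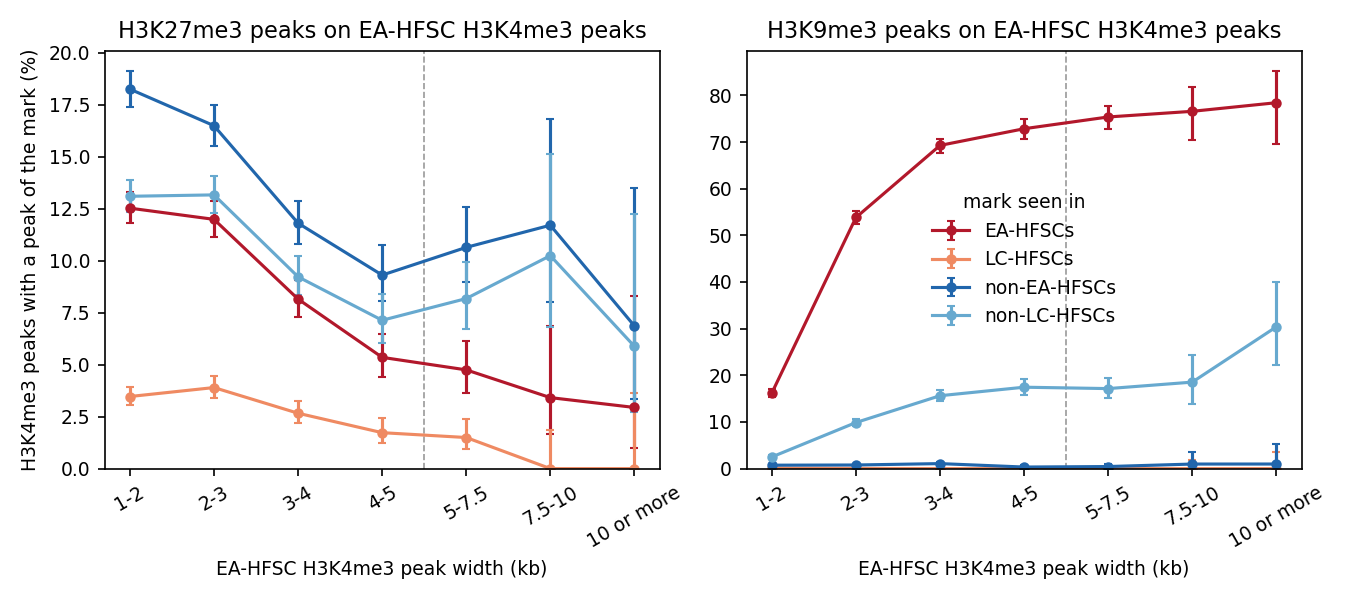
Percentage of EA-HFSC H3K4me3 peaks with an overlapping peak of H3K27me3 (left) or H3K9me3 (right) in each population (y axis; the axes differ in range) by width of the H3K4me3 peak (x axis, kb); bars are 95% Wilson intervals and the dashed line is the 5-kb threshold. H3K27me3 in EA-HFSCs is at 12.5% at 1–2 kb and 2.94% at 10 kb or more, and H3K9me3 is at 16.2% and 78.4%.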

How the data were processed

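ChIP-seq of H3K4me3, H3K27me3 and H3K9me3 was analysed from 12 deposited peak lists (16 samples, of which 4 IgG controls have no list). Per the study's methods and the submitters' processing notes, which name Trimmomatic 0.22, the authors trimmed reads, aligned them to mm9 with Bowtie2, pooled replicates and used MACS for peak calling, with the IgG of each population as control. The deposited score of each peak is −10 log10 of the MACS p, with a lowest p of 1e-05 for H3K4me3 and 0.0001 for the other marks. The lists hold positions and scores but no read numbers, so depth could not be computed from them. The methods state that LC-HFSC samples had the higher read number of the HFSC samples. They describe H3K4me3 peak calling as nearly saturated in every population, and H3K27me3 and H3K9me3 as not sequenced to saturation.

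Width was the end minus the start of a peak, and populations were compared by overlap of at least 1 bp. A gene was under a domain if its 5′-most start in GENCODE vM1 (NCBIM37, the build of the lists) lay within it. Python 3.11.15, pandas 2.3.3 and pysam 0.24.0 were used. Overlap code was checked on 4 sets of 20000 simulated peaks and against bedtools 2.31.1. The 1444 domains and the gene lists were chosen with earlier results of these data known. Named domains were the widest of each class, with the widest 2 to 4 genes of each list in general, and some of them are not reported here. Other genes of a list were named after their values were seen. No promoter on chromosome 18 was printed. Alternatives covered score, chromosomes, width, merging, overlap, list length and the gene start.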

Additional observations from a re-analysis of the deposited data

Results flagged for a closer look

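The share of broad domains with an H3K9me3 peak differed between the ages in opposite directions in the 2 kinds of cells. Late catagen minus early anagen was −75.8 percentage points in HFSCs, with 75.8% in early anagen and 0 in late catagen, and 17.7 percentage points in non-HFSCs, with 0.554% and 18.3%. Over all EA-HFSC H3K4me3 peaks the directions were the same. The shares there were 42.7% in early anagen and 0.0605% in late catagen HFSCs, and 0.735% and 8.77% in non-HFSCs. The opposite directions were thus not particular to the broad domains. With 1 list per population the difference between these changes was not tested. The H3K9me3 lists held 42277 peaks in EA-HFSCs, 1414 in LC-HFSCs, 17873 in non-EA-HFSCs and 18236 in non-LC-HFSCs.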

How the results depend on the processing

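Of 81 recalculated values over 11 results, 56 stayed within the 95% interval of the reported share, or within 1.5 times a reported count. Values on the 19 autosomes all did, as did those without the 5 domains that scored under 100 (chosen after seeing the data). At a width of 4000 bp there were 3238 domains and 3358 genes, 42.7% and 25.8% of domains were past the threshold in nEA and nLC, and 19.7% were CpG-rich. At 7500 bp there were 307 domains and 321 genes, presence was 99.3% in both LC-HFSCs and non-LC-HFSCs, 34.5% and 35.5% were past the threshold in LC-HFSCs and non-EA-HFSCs, 3.26% had EA-HFSC H3K27me3 and 7.82% were CpG-rich. With at least 50% of the domain covered, presence was 92.8% in LC-HFSCs, 93.1% in non-EA-HFSCs and 84.1% in non-LC-HFSCs, and the shares with EA-HFSC H3K27me3 and H3K9me3 were 2.42% and 9.49%. At a score of at least 100, presence in LC-HFSCs was 95.7% and H3K9me3 31.5%. With the 14718 top-scoring peaks of each list, presence was 98.4% in non-EA-HFSCs and 98.2% in non-LC-HFSCs. With peaks under 1 kb apart merged, 48.3% and 28.7% were broad in nEA and nLC and 15.0% were CpG-rich. No paired analysis was possible because each population and mark had 1 pooled list, and for the same reason no replicate could be left out. Depth is not known from the lists and limits each presence and width.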
